A study of Rattus norvegicus with 12 samples.

Results

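Arc and 9 other immediate early genes, Fos, Fosb, Egr1, Egr2, Egr3, Junb, Nr4a1, Ier2 and Atf3, were followed in the colon of rats after neonatal maternal separation (NMS). Every probe of the arrays that carries the symbol of one of these genes was taken, whatever its case, which gave 12 probes for the 10 genes among 30367 probes with 26514 different names. The genes were selected on their names and on earlier results of the same arrays, above all the measured log2 differences of M vs C and of D vs M, so values in these comparisons are given as a description. Where the members past a threshold are counted there, the count stands beside the share of all probes past it, and it is no test of a member.

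Colon was taken from 12 male Wistar rats, 1 array per rat, 4 rats in each group. Group C (C1 to C4) stayed with the dam and received placebo, 100 µL of saline by gavage. Group M (M5 to M8) was separated for 180 min a day from postnatal day 2 to day 14 and received the same placebo, and Group D (D9 to D12) was separated in the same way and received VSL#3, a mixture of probiotic bacteria, at a daily dose on which the labels and the methods of the study differ. Gavage ran from day 3 to day 60, the day of sacrifice, and all 12 rats underwent colorectal distension (CRD). The interval from CRD to sacrifice and the litters of the rats are not given in the sources used here, so the spread between rats of a group is the only error that the p-values measure. The methods of the study name 11 arrays, with D9 to D11 for Group D, so values are given for these 11 first, and for D12 beside them.

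Immediate early genes are transcribed within minutes of a stimulus, without new protein synthesis, from promoters that transcription factors such as SRF and CREB already occupy. Most encode transcription factors, among them the AP-1 proteins Fos, Fosb and Junb and the zinc finger proteins of the EGR family, and their messages are short-lived. Arc differs from them in that it encodes a cytoskeleton-associated protein, studied above all at neuronal synapses, where it takes part in the removal of AMPA receptors. In the gut, such genes are used as marks of recent activity in neurons and of responses to injury or growth factors in epithelium, muscle and immune cells.

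The promoters of 4 members are shown, those of Egr2 and Nr4a1, which ran with Arc across the rats, and those of Junb and Ier2, which ran with it little or in the opposite direction. They are the 250 bases before the start of transcription, from RefSeq on the GRCr8 build, read 5′ to 3′ on the strand of the gene. Capitals mark matches to any of 6 motifs on either strand, which were the CArG box bound by SRF, the cAMP response element TGACGTCA, its core TGACG, which lies within it once on each strand, the AP-1 site TGANTCA, the EGR site (CGCCCCCGC as read on the strand shown for Nr4a1) and the TATA box TATAAA.
Egr2, chr20:21054442-21054691, minus strand: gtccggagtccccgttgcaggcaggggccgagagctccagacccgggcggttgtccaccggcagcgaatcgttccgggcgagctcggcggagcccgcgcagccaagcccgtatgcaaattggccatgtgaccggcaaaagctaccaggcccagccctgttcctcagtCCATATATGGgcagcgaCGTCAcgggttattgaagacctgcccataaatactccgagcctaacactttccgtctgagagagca
Nr4a1, chr7:134259888-134260137, plus strand: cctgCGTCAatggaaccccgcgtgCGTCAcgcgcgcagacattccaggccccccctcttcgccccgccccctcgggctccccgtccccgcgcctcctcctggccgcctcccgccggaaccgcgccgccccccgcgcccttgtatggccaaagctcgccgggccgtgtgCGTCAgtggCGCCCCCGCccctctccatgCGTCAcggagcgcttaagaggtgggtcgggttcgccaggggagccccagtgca
Junb, chr19:40080876-40081125, plus strand: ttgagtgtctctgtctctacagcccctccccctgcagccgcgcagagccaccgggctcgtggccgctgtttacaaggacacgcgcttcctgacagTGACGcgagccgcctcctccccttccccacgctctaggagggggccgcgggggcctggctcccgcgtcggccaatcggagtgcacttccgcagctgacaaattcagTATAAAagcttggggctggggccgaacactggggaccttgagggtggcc
Ier2, chr19:40399123-40399372, plus strand: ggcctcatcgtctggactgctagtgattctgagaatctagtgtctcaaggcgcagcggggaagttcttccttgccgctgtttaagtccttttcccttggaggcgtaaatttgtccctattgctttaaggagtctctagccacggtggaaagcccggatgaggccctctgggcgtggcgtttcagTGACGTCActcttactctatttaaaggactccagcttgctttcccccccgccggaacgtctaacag

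Of the 10 members, 6 had a promoter in the table (Fosb, Egr1, Egr2, Junb, Nr4a1 and Ier2), and Arc, Fos, Egr3 and Atf3 did not. A CArG box stood in the promoters of Egr1, at 2 places, and of Egr2, and in 1.5% of 33469 promoters of the same length. The full cAMP response element stood in that of Ier2 and in 1.59% of all. The core stood in 5 of the 6, 4 times in that of Nr4a1, and in 18.2% of all promoters. Nr4a1 also held an EGR site (2.45% of all) and Junb a TATA box, as did Fosb on the other strand (12.9% of all), and none of the 6 held the AP-1 site (6.34% of all). These matches describe letters in this window and were not tested for a link with the signals below.

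Signals are given as log2 values on a scale where the 75th percentile of each array is 0, and levels are compared between rats for one probe, never between probes. On this scale the dimmest probe well above background stood between -6.85 and -6.51 on each of the 12 arrays. All probes of 9 members were well above background on 12 of 12 arrays, and both probes of Egr3 on 0 of 12. The arrays of Groups C and M shared slide 1, on a row each, and those of Group D lay on slide 2, so that row and group, and slide and Group D, cannot be told apart. The tissue held the markers of the whole colon wall, with 12 of 12 markers of colonocytes, 8 of 8 of smooth muscle and 8 of 10 of enteric neurons well above background on every array. In such a bulk sample, fewer cells of a type and less RNA per cell cannot be told apart.

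**Figure D1:**
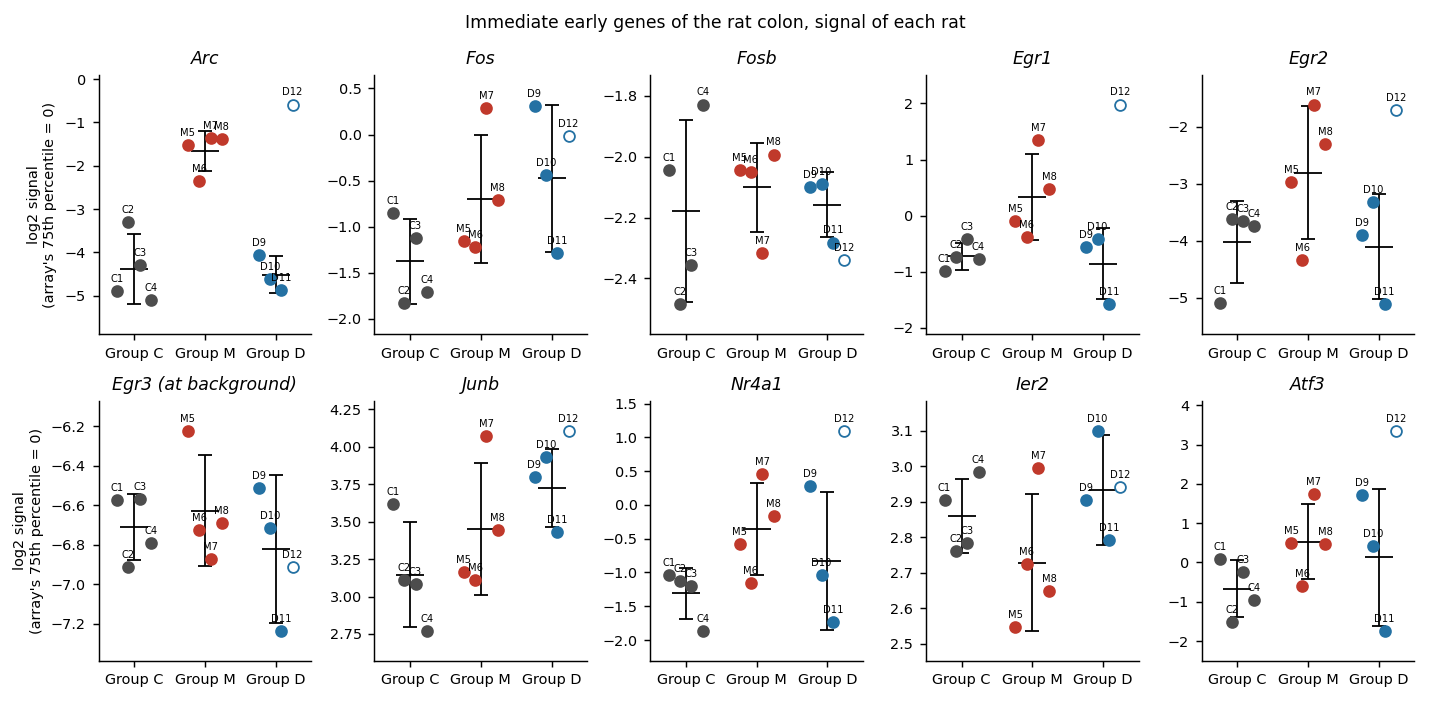
Log2 signal of each of the 10 members (main probe) in each rat, by group. Filled points are the 11 arrays named by the methods of the study, the open point is D12, and the line with whiskers is the mean ± SD of the filled points of a group. For Arc all 4 Group M rats lay above all 4 Group C rats and D9 to D11, and D12 was the highest rat, whereas Fosb and Ier2 had the narrowest spread of the members above background.

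Arc was the member with the largest difference between groups, with all 4 separated placebo rats above the whole of Group C. Its signal was -4.88, -3.29, -4.29 and -5.10 in C1 to C4. In M5 to M8 it was -1.53, -2.34, -1.37 and -1.38. In D9 to D11 it was -4.05, -4.61 and -4.87. The Group M rats thus stood 4.13-fold to 8.13-fold above the mean of Group C, and the VSL#3 rats D9 to D11 lay within the range of Group C. Rat D12 of the same treatment had the highest Arc signal of all 12 rats, -0.59, which is 14.0-fold the mean of Group C.

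As means, Arc was at -4.39 ± 0.81 (SD, n = 4) in Group C, at -1.65 ± 0.47 (SD, n = 4) in Group M and at -4.51 ± 0.42 (SD, n = 3) in D9 to D11. Group M vs Group C differed by 2.74 ± 0.39 (SE) on the log2 scale, or 6.66-fold. Group D vs Group M differed by -2.86 ± 0.42 (SE), or 7.24-fold lower. Both differences exceeded the spread of the rats around their group means, which was 0.61 (SD pooled over the 11 arrays). Arc was chosen with both differences known, so this is a description and no test. Group D vs Group C differed by -0.12, with a 95% interval of -1.05 to 0.81 that takes in 0. With D12 in Group D, its mean was -3.53 ± 1.99 (SD, n = 4), the difference from Group M was -1.88 ± 0.81 (SE), and Groups D and M overlapped.

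The probe of Arc lies at chr7:112772025-112772084 (rn4) and is printed 10 times on each array. The SD of these spots ran from 0.044 in M7 to 0.21 in C4, so that most steps between rats exceeded it. In falling order the rats were D12, M7, M8, M5, M6, C2, D9, C3, D10, D11, C1 and C4. Neighbours closer than the SD of their spots were M7 and M8, 0.012 apart, and D11 and C1, 0.0069 apart. The spots of a rat share 1 array, so their SD leaves out the error of RNA and labelling and does not show which rats differ. The widest step, 0.94, lay between M6, the lowest rat of Group M, and C2, the highest of Group C.

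Egr1 and Egr2, zinc finger transcription factors that growth factors and neuronal activity switch on, ran in the direction of Arc at a smaller size. Egr1 was -0.99, -0.73, -0.41 and -0.77 in C1 to C4 by its main probe. In M5 to M8 it was -0.10, -0.39, 1.34 and 0.47. In D9 to D11 it was -0.57, -0.42 and -1.59, and in D12 it reached 1.98. Groups C and M did not overlap, but M6 and C3 nearly touched (-0.39 and -0.41), and M7 and M8 stood highest in Group M, with a difference of 0.72 when M7 was left out. The difference was 1.06 ± 0.37 (SE) for Group M vs Group C and -1.19 ± 0.40 (SE) for Group D vs Group M.

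A second probe of Egr1, 1115 bases away on chromosome 18 of rn4, did not give the same picture. Its difference of Group M vs Group C was 0.13 ± 0.54 (SE), with groups that overlapped, and that of Group D vs Group M was -0.78 ± 0.58 (SE). The probes ran together across rats (r = 0.83, n = 12), with D12 and M7 the highest and D11 the lowest in both. By the second probe both M5 (-1.82) and M6 (-2.37) were below C1, C2 and C3 (-1.63, -1.24 and -1.30), and M8 (-1.53) was below C2 and C3. The counts of members below take Egr1 by its main probe.

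Egr2 was -5.10, -3.62, -3.65 and -3.74 in C1 to C4. In M5 to M8 it was -2.96, -4.34, -1.61 and -2.30, so 3 rats of Group M were above Group C and M6 was not. D9 to D11, at -3.89, -3.31 and -5.12, covered the range of Group C, while D12, at -1.70, stood with M7. Group M vs Group C differed by 1.23 ± 0.61 (SE) and Group D vs Group M by -1.31 ± 0.65 (SE), both with overlap. Egr3, the third member of the family, was not well above background in any rat by either probe, so no difference is given for it.

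The AP-1 genes among the members did not follow Arc. Fos, the partner that forms AP-1 with Jun proteins, was -0.85, -1.83, -1.13 and -1.71 in C1 to C4. In M5 to M8 it was -1.15, -1.22, 0.28 and -0.71, and only M7 and M8 were above the whole of Group C. In D9 to D11 it was 0.31, -0.44 and -1.29, so the highest Fos signal of all 12 rats was in D9, a rat with low Arc. Fos therefore differed little between Groups D and M, by 0.23 ± 0.45 (SE) on the log2 scale, while D vs C, at 0.90 ± 0.45 (SE), was larger than M vs C, at 0.68 ± 0.41 (SE). These sizes rest on D9 to D11 and on shared rats of Groups C and M, and whether one effect exceeds another was not tested.

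Junb, a Jun protein of AP-1, ran between 2.77 and 3.62 in Group C, 3.11 and 4.07 in Group M, and 3.43 and 3.94 in D9 to D11. It was 0.30 ± 0.24 (SE) higher in Group M than in Group C and 0.58 ± 0.26 (SE) higher in D9 to D11 than in Group C, with overlap in both. Fosb was flat, with a difference of 0.078 ± 0.15 (SE) for Group M vs Group C and all 12 rats between -2.49 and -1.83.

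Atf3, a stress-induced factor of the ATF and CREB family, had the widest spread of all members. It was 0.08, -1.52, -0.25 and -0.97 in C1 to C4. In M5 to M8 it was 0.49, -0.59, 1.74 and 0.47, and in D9 to D11 it was 1.72, 0.41 and -1.74. D9 and D11 of one treatment stood at opposite ends, and D12 (3.35) was 16.1-fold above the mean of Group C. The differences, 1.19 ± 0.72 (SE) for Group M vs Group C and -0.40 ± 0.78 (SE) for Group D vs Group M, were within or near the pooled spread of 1.14 (SD).

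Nr4a1, an orphan nuclear receptor also known as Nur77, was -1.04, -1.12, -1.19 and -1.86 in C1 to C4. In M5 to M8 it was -0.58, -1.16, 0.45 and -0.17, with M6 alone inside the range of Group C. D9 was at 0.28, D10 at -1.03 and D11 at -1.74, and D12 at 1.096, the highest of all rats. Group M vs Group C differed by 0.94 ± 0.45 (SE) and Group D vs Group M by -0.47 ± 0.48 (SE). Ier2, a nuclear protein of the early response to growth factors, was flat, at 2.86 ± 0.10 (SD, n = 4) in Group C, 2.73 ± 0.19 (SD, n = 4) in Group M and 2.93 ± 0.16 (SD, n = 3) in D9 to D11.

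**Figure D2:**
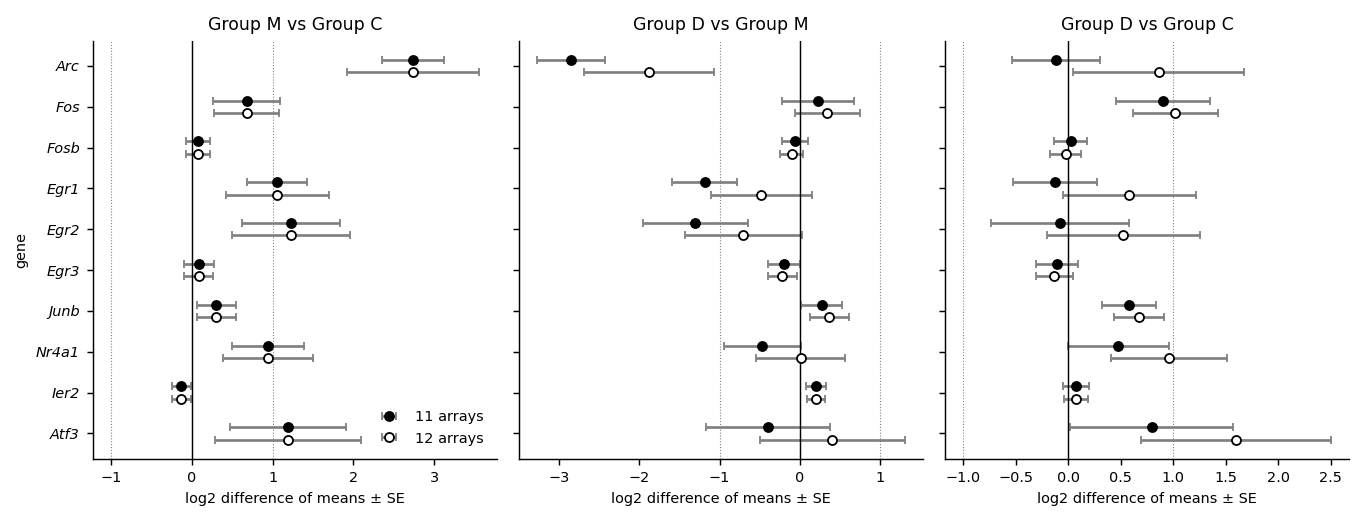
Log2 difference of the group means ± SE for each member (main probe) in Group M vs Group C, Group D vs Group M and Group D vs Group C, with the 11 arrays (filled) and with D12 added (open). Dotted lines mark a 2-fold change, and Egr3 was at background on every array. Arc stands apart in the first and second panels, at 2.74 and -2.86 with 11 arrays, and with D12 the second value is -1.88.

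Over the 10 members, Egr3 at background among them, 9 had a positive difference in Group M vs Group C (47.9% of all probes did), and the median was 0.81, against -0.01 over all probes. Over the 9 members other than Egr3 the median was 0.94. At least 2-fold higher were 4, Arc, Egr2, Atf3 and Egr1 (3.56% of all probes). In 2 members, Arc and, by its main probe only, Egr1, Groups M and C did not overlap (4.18% of all probes, upward). By limma, 1 member, Arc, had an adjusted p no higher than 0.05 together with a 2-fold change (0.165% of all probes, 50 in number). It was also the 1 member to meet the criterion of the study's methods, which asks for a 2-fold change with p no higher than 0.05 in analysis of variance and in Tukey's comparison (1.37% of probes, upward). Since the list was chosen with this comparison known, nothing is read from these counts about the members as a group.

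In Group D vs Group M the median was -0.30 over the 10 members and 0.01 over all probes. Over the 9 members other than Egr3 the median was -0.40. Below 0 were 7 of 10 differences, that of Egr3 at background among them (48.2% of all probes). At least 2-fold lower were 3, Arc, Egr2 and Egr1 (4.6% of all probes). Arc and, by its main probe only, Egr1 were lower in D9 to D11 than in every rat of Group M (7.38% of all probes). Arc alone was past the adjusted threshold with a 2-fold change (0.128%, 39 probes) and alone met the criterion of the methods (1.57% of probes, downward). These comparisons share the rats of Group M, so that a rat of Group M that stands high enters both.

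In Group D vs Group C the median over the members was 0.047, against -0.01 over all probes. None of the 10 was past the threshold by limma, and 2 of all probes were (0.00659%). None of the 10 had an unadjusted p of at most 0.05, against 5.97% of all probes. The largest differences were those of Fos, 0.90, Atf3, 0.79, and Junb, 0.58. With D12 the median was 0.63, and 2 members, Atf3 and Fos, were at least 2-fold higher than in Group C (0.504% of all probes). None was then past the threshold (0.00659% of all probes), and 2, Fos and Junb, had an unadjusted p of at most 0.05 (6.85% of all probes).

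The place of Arc past the threshold was narrow. With all 12 arrays no member was past it in M vs C (0.0329% of all probes) or D vs M (0.0132% of all probes). Leaving out 1 of the 11 rats at a time kept Arc past it in 2 of 11 fits, those without C2 and without M6, in both comparisons, and without M6 Egr1 joined it. The size of the difference depended less on single rats, from 2.4999 without C4 to 3.10 without C2 in M vs C, and from -3.09 without M6 to -2.675 without D11 in D vs M. The median of the members rested more on them, at 0.81 in M vs C and 0.51 without M7, and in D vs M at -0.30, -0.69 without D9 and 0.0097 without D11.

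**Figure D3:**
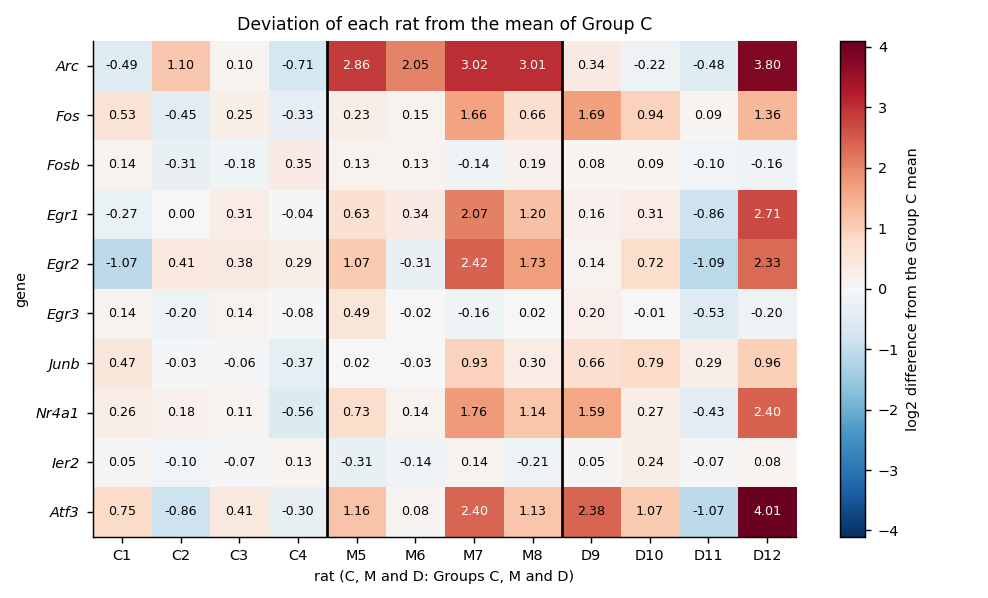
Log2 difference of each rat from the mean of Group C for each member (main probe), with the 3 groups separated by lines. The row of Arc is high in all of M5 to M8 and in D12, the rows of Fos and Atf3 are high in D9 as well, and the rows of Fosb and Ier2 are near 0 throughout. The row of Egr3 is near 0 too, with its signal at background on every array.

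Rats of one group differed in the members as a whole. Averaged over the 10 members, the signal was 1.73 above the mean of Group C in D12, 1.41 in M7, 0.92 in M8 and 0.73 in D9, and these were the 4 highest rats. The next were M5 at 0.70, D10 at 0.42 and M6 at 0.24, and the lowest was D11 at -0.43. Counting members that exceeded the Group C mean by 2-fold or more, there were 6 in D12 and M7, 5 in M8, 3 in M5 and D9, 1 in M6, D10 and C2, and 0 in the other rats. A treated rat, D9, therefore stood above 2 of the 4 placebo rats of Group M, and a Group M rat, M6, stood near Group C except in Arc.

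Across the 12 rats the members fell into a set that ran together and a few that did not, as far as 12 values from 3 groups on 2 slides can show. Egr1 and Egr2 had r = 0.92, Nr4a1 and Atf3 r = 0.94, Fos and Junb r = 0.89, and Fos and Atf3 r = 0.87. Arc ran with Egr1 (r = 0.84), Egr2 (r = 0.79) and Nr4a1 (r = 0.74), less with Atf3 (r = 0.60), and little with Fos (r = 0.37) and Junb (r = 0.32). Fosb and Ier2 had r = -0.20 and r = -0.36 with Arc. On the deviations of the rats from their group means, the values of Arc were 0.86 with Egr1, 0.75 with Egr2, 0.79 with Nr4a1 and 0.29 with Fos. D12 enters these values far from its group, with Arc at -0.59 against a mean of -3.53 for D9 to D12. No correlation was computed without D12.

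Among 28 other transcription factors of the primary response, none passed limma's adjusted p in any comparison, at the same limit of 0.05. Of all probes, 0.204% passed it in M vs C, 0.171% in D vs M and 0.00659% in D vs C. In Group M vs Group C 21 of 28 differences were positive (47.9% of all probes), with a median of 0.51 against -0.01 for all probes. The criterion of the methods was met upward by 6 (1.37% of all probes, upward). At an unadjusted p of at most 0.05 were 11 upward and 1 downward (22.7% of all probes, both directions). Crem, which binds cAMP response elements, differed by 1.79 ± 0.36 (SE, limma adjusted p = 0.0867). Nr4a3, a receptor related to Nr4a1, was well above background in 3 of 4 rats of Group C and in all of Group M, with a fitted difference of 2.73 ± 0.66 (SE, adjusted p = 0.0981) that includes the rat at background. Fosl1, an AP-1 protein, ran from -1.26 to 0.94 in Group M, where all 4 rats were well above background, against 1 of 4 rats in Group C and 1 of D9 to D11, and no size is given for it (adjusted p = 0.0894). Egr4, the remaining EGR protein, was well above background in 1 rat of Group M and in none of Group C, and no fold is given. In Group D vs Group M the median was -0.31, and Nfil3, a basic leucine zipper repressor, differed by -2.30 ± 0.62 (SE, adjusted p = 0.101).

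Of 42 signalling and secreted products of the primary response, 2 rose in Group M vs Group C by limma (0.204% of all probes, both directions) and none fell. Pim1, a serine/threonine kinase, rose 3.64-fold (adjusted p = 0.0268), and Rcan1, an inhibitor of calcineurin that calcium signals switch on, rose 3.22-fold (adjusted p = 0.0268). Rcan1 was 0.41, 0.76, 0.46 and 0.33 in C1 to C4 and 2.12, 1.60, 2.70 and 2.28 in M5 to M8, with no overlap. Its signal was 0.62, 0.44 and 0.26 in D9 to D11, where it fell against Group M (adjusted p = 0.0427, 0.171% of all probes), and 2.71 in D12. Hbegf, a ligand of the EGF receptor, was higher in Group M by 2.396 ± 0.53 (SE) without passing (adjusted p = 0.0908). Socs3, a feedback inhibitor of cytokine signalling, differed by -1.73 ± 0.39 (SE, adjusted p = 0.0832) in Group D vs Group M. The median of the list was 0.34 in M vs C and -0.25 in D vs M.

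Of 22 genes of neuronal activity and synaptic partners of Arc, none passed in any comparison (0.204%, 0.171% and 0.00659% of all probes did). The median was 0.060 in Group M vs Group C. Unadjusted p values of at most 0.05 numbered 3 of 22, all upward, against 22.7% of all probes in both directions. Nptx1, a neuronal pentraxin, met the criterion of the methods but was well above background in 2 rats of Group M alone, which allows a statement of at least 1.06-fold. Not well above background on any array were Npas4 of the factors above, and Bdnf, Dlg4, Grin1, Grin2b, Gria1, Gria2, Grm5 and Sh3gl3 of this list. Of the 28 upstream regulators, kinases and factors such as Elk1 and Creb1, 26 were measured and none passed, against the same shares of all probes. Their median was -0.02, with values from -0.58 to 0.61, in Group M vs Group C.

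Heat shock proteins, chaperones that many stresses induce, had the highest median of the 5 lists in Group M vs Group C, 1.06. Of 12 genes 11 were measured, and all 11 differences were positive (47.9% of all probes). The lists were chosen with earlier results of these data known, so their order is a description and no test. Hspa1b, an inducible Hsp70, rose 13.0-fold (limma adjusted p = 0.0470) and alone passed. Since Hspa1a is nearly identical to it and has no probe of its own name here, the probe may measure both. Hspa1b was -0.69, 1.70, 0.19 and -0.94 in C1 to C4 and 4.20, 2.65, 4.46 and 3.76 in M5 to M8. It was 0.93, 0.23 and -0.29 in D9 to D11, where the difference from Group M, -3.48 ± 0.64 (SE), did not pass (adjusted p = 0.0690), and 4.66 in D12. Hsph1 and Hsp90aa1, other chaperones, were higher in Group M by 1.33 ± 0.31 (SE) and 1.06 ± 0.27 (SE) with adjusted p of 0.0961 and 0.101, and Hspb1 differed by -1.60 ± 0.46 (SE, adjusted p = 0.113) in Group D vs Group M. In the 5 lists together 3 of 129 genes rose in M vs C (0.204% of all probes, both directions) and 1 fell in D vs M (0.171%). In Group D vs Group C 0 passed (0.00659%), and 9 of 129 had an unadjusted p of at most 0.05, against 5.97% of all probes. With D12 in the fit 0 of the 129 passed in any of the 3 comparisons.

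**Figure D4:**
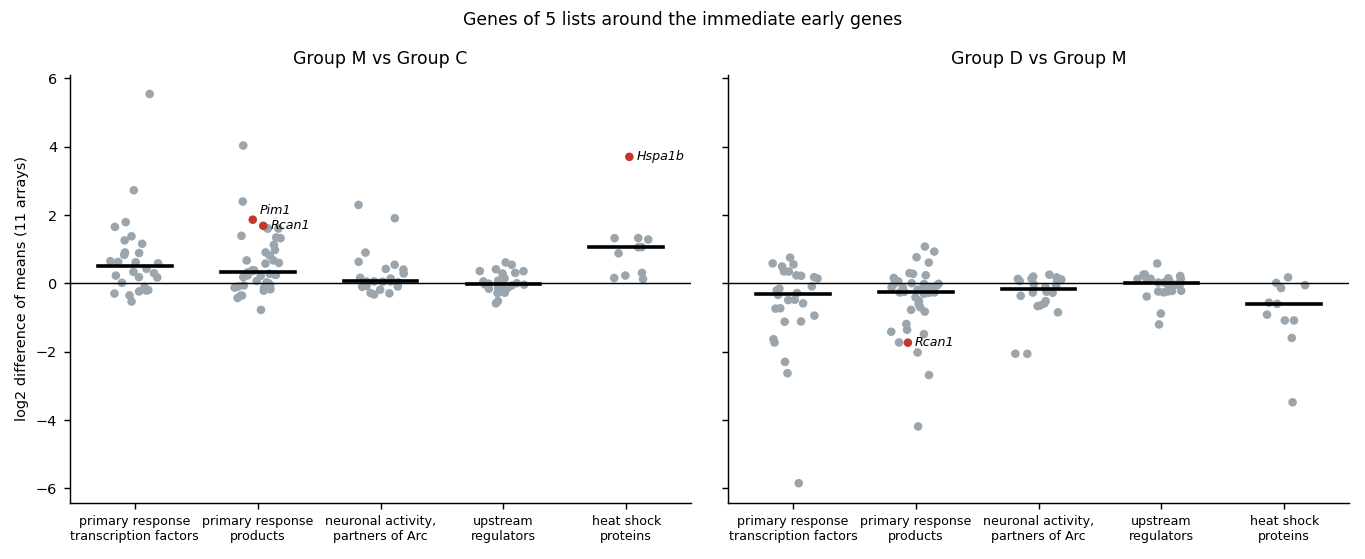
Log2 difference of the group means (11 arrays) for each gene of 5 lists in Group M vs Group C and Group D vs Group M, 1 point per gene, with a bar at the median of the list. Named points passed limma's adjusted p. The medians run from 1.06 for heat shock proteins to -0.02 for upstream regulators in the first panel.

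Over 11325 named genes well above background on every array, those whose log2 signal followed that of Arc most closely across the 12 rats were Hspa1b (r = 0.99), Rcan1 (r = 0.98), Akap2 (r = 0.97), Stat3, Ireb2, Tnfrsf12a and Hbegf (r = 0.96 each), and Samd4a, Nfkb1 and Icam1 (r = 0.95 each). Of all these genes 8.84% had an r of at least 0.8 with Arc. In the order of r over all of them, Egr1 stood at place 601 and Fos at 3427. The genes closest to the mean of the members were Nsun5 (r = 0.97), Mapk1ip1l (r = 0.96), Tpst2, Utp3, Senp3, Phlda1, PVR, Ddx18, Ccrn4l and Sh3bgrl3 (r = 0.94 or 0.95), and 4.75% of genes had an r of at least 0.8 with it. Within the Group C rats, Hspa1b and Rcan1 were highest in C2, as was Arc, and within Group M all 3 were lowest in M6.

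**Figure D5:**
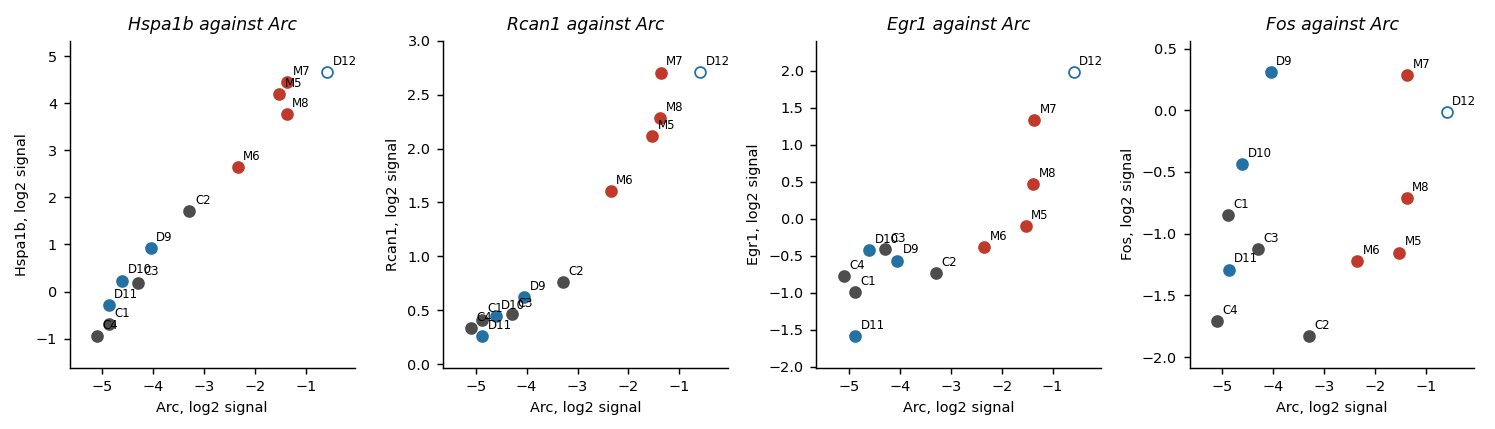
Log2 signal of Hspa1b, Rcan1, Egr1 and Fos (vertical axes) against that of Arc (horizontal axes), 1 point per rat, coloured by group with D12 open. Hspa1b and Rcan1 lie along one line with Arc (r = 0.99 and 0.98, n = 12 rats), Egr1 spreads around it, and Fos does not follow it (r = 0.37).

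Levels of the markers of some cell types moved with Arc as well, and those of others did not. Across the 12 rats the mean log2 level of the B cell list ran with Arc at r = 0.81, of the T cell list at 0.73, of neutrophils at 0.71, of macrophages at 0.70 and of enteric glia at 0.89, and that of colonocytes at -0.72. For enteric neurons r was -0.02, for smooth muscle 0.09, for fibroblasts 0.09, for endothelium 0.13 and for goblet cells -0.51. The summed level of the B cell markers (5 of 6 measured, 3 well above background on every array), where 1 is the 75th percentile of the array, was 0.44 to 5.68 in Group C, 0.56 to 8.58 in Group M and 0.39 to 14.2 in D9 to D12. The T cell markers (6 of 6) covered 0.68 to 4.97, 0.67 to 4.29 and 0.64 to 9.32. The neutrophil markers (5 of 5, 2 on every array) covered 0.10 to 0.36, 0.14 to 3.67 and 0.13 to 0.40, and those of enteric glia (5 of 5, 3 on every array and Fabp7 on none) 0.37 to 0.47, 0.49 to 0.60 and 0.45 to 0.56. Of the 5 glia markers 2, Gfap and Sox10, had a positive difference in Group M vs Group C (1.52 and 0.77), and the median of the list was -0.033. The summed level of the colonocyte markers (12 of 12) covered 193.1 to 250.7 in Group C, 209.5 to 333.8 in Group M and 195.6 to 308.9 in D9 to D12. The highest sum was in M7, a rat with high Arc. Of the 12 colonocyte markers 5 had a positive difference in Group M vs Group C, and their median was -0.29. Mast cell markers (6 of 6, 4 on every array) covered 0.73 to 0.93, 1.31 to 1.77 and 1.04 to 3.13, with r = 0.37 with Arc. Of the marker genes of 12 cell types 0 passed in any comparison (0.204%, 0.171% and 0.00659% of all probes did). M6 was the lowest rat of Group M in Arc, with a log2 signal 2.05 above the mean of Group C. Its B cell and T cell levels, -1.03 and -0.94 from the mean of Group C, were the lowest of Group M as well. C2 had the highest B cell and T cell levels of Group C, 2.57 and 1.65 above the mean of that group on the log2 scale. The Arc signal of C2, -3.29, was also the highest of Group C. The 75th percentile of the arrays, 1433.9 to 1953.3, ran with Arc at r = 0.56, and the percent of spots above background at r = 0.62. The list of upstream regulators, with a median difference of -0.02 in Group M vs Group C, also ran with Arc at r = 0.80. For the other gene lists r was 0.94 (transcription factors), 0.89 (products), 0.88 (neuronal activity and partners of Arc) and 0.95 (heat shock proteins). The part of the marker levels in the differences of the members was not tested.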

How the data were processed

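RNA of 12 colon samples was hybridized to 1-colour (Cy3) Agilent Whole Rat Genome arrays. Per the file headers, Agilent Feature Extraction 10.5.1.1 made the deposited intensity of each spot by background subtraction and detrending, and the other marks per spot show outliers and spots well above background. The authors' matrix of log2 values was used as an alternative, and its quantile normalization was read from the values. Here log2 signals were shifted to the 75th percentile of each array, control and outlier spots were left out, and spots of a probe were averaged. A gene with several probes was taken by the one with the highest mean signal. The 3 groups were fitted in one model over 11 arrays with limma 3.58.1 under R 4.3.3 (lmFit, eBayes), with Benjamini-Hochberg adjustment over 30367 probes. Calls of probes needed 2-fold and an adjusted p no higher than 0.05, calls of listed genes the adjusted p alone. Genes named are all members, the listed genes past the adjusted p, filled up to 4 per list and comparison by those that met the criterion of the methods in order of size, and the 10 most like Arc or the members' mean. One gene that this rule selects is not reported here. The members, lists and alternatives were chosen with earlier results of these data known. The fit was tested on simulated data: of 200 probes shifted by 2 (log2) among 30348, it found 182 for M vs C and 181 for D vs M. It made 7 and 5 false calls. The noise was drawn independently for each probe, so rats that deviate over many probes at once were not simulated. Other software was data.table (version 1.17.8), Python (3.11.15) and, for plots, matplotlib (3.10.9).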

Additional observations from a re-analysis of the deposited data

Results flagged for a closer look

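In groups of 4 rats, 2 of 36 had a rat far from the other 3 by Dixon's test, where chance gives about 1 in 20. Arc was low in M6 within Group M, at -2.34 with the other 3 between -1.53 and -1.37. Egr2 was low in C1 within Group C, at -5.10 with the other 3 between -3.74 and -3.62.

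Rat D12, which the methods of the study do not name, had signals above all 4 Group C rats in 7 of the 10 members. They were -0.59 for Arc, -0.016 for Fos, 1.98 for Egr1 (0.051 by the second probe), -1.70 for Egr2, 4.11 for Junb, 1.096 for Nr4a1 and 3.35 for Atf3. Its B cell and T cell markers were the highest of the 12 rats as well (3.86 and 2.46 above the mean of Group C on the log2 scale), and the part of these in the signals was not tested.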

How the results depend on the processing

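Over 22 alternatives, 620 of 657 differences of single members kept their sign, and no called value changed sign. The median difference of the members was 0.64 to 0.94 in Group M vs Group C over the alternatives other than leaving out a rat, -0.40 to -0.04 in Group D vs Group M and 0.047 to 0.63 in Group D vs Group C, where the highest value, 0.63, came with all 12 arrays. Leaving out 1 rat at a time gave 0.51 to 1.03, -0.69 to 0.0097 and -0.04 to 0.33. Counts of probes called (50, 39 and 2 in the 3 comparisons) and of listed genes called (3, 1 and 0) moved far more, and the cause was not tested. With all 12 arrays they were 10 and 4 probes in Group M vs Group C and Group D vs Group M, with 0 and 0 listed genes. With normexp, 91 probes were called in Group D vs Group M, and 8 and 8 listed genes. Quantile normalization gave 0 probes and the authors' matrix 4 in Group D vs Group C, the matrix 28 in Group M vs Group C, and the shift to the median 14 in Group D vs Group M. The filter on dim probes, which 9 members passed, gave 79 and 169 probes, and 7 listed genes in Group D vs Group M. Array weights gave 2125 and 2107 probes and 59 and 45 listed genes. A model of only the compared groups gave 23, 11 and 0 probes and 0 and 0 listed genes. The criterion of the methods gave 701, 807 and 112 probes and 18 and 19 listed genes, and with Benjamini-Hochberg adjustment 1, 1 and 0 probes and 0 and 0 listed genes. Without 1 rat, probes called ran from 5 (without C1) to 1772 (without M6) in Group M vs Group C, from 1 (without D10) to 1978 (without M6) in Group D vs Group M, and from 0 to 10 in Group D vs Group C. In the first and second comparison every rat but C2 moved the count by over 1.5 times. Listed genes called ran from 0 to 36, from 0 to 29 and from 0 to 0.

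The replicate numbers of the labels did not pair the rats. The deviations of same-numbered rats from their group means correlated at -0.56 to 0.38, with 3 of 12 pairs over 0.1. With the replicate block 1, 1 and 0 probes and 0 and 0 listed genes were called, and the member medians were 0.81, -0.34 and 0.089.

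Arc was past the threshold in both comparisons with normexp, quantile normalization, the authors' matrix, outlier spots kept, the filter and the mean over probes. With the shift to the median it was past it in Group M vs Group C alone, with the block, all 12 arrays or the compared groups alone in neither, and with array weights Egr1 was past it too, and Egr2 in Group M vs Group C. The size of the Arc difference moved as well. With normexp it was 2.01 rather than 2.74 (M vs C) and -2.09 rather than -2.86 (D vs M). Over the alternatives other than leaving out a rat, the M vs C value of Arc ran from 2.01 to 3.07. Its D vs M value ran from -3.07 to -1.88, the latter with all 12 arrays. The signal of Egr3, at background on every array, limits what can be said of it.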

Other observations

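On the deviations of the 12 rats from their group means, the genes that followed Arc most closely were Hspa1b (r = 0.98), Gga3 (r = 0.97), Plekha3 (r = 0.97), Hdac6, Phtf2, Samd4a, Mapk8ip3, Zfp281 (r = 0.96 each), Rcan1 and Cd97 (r = 0.95 each), so Hspa1b, Samd4a and Rcan1 stood in the lists with and without the group means. Those that followed the mean of the members were Btg2 (r = 0.97), Tpst2, Nsun5 and Zfp36 (r = 0.96 each), Senp3 and Ppp1r15a (r = 0.95 each), Mapk1ip1l, Gosr2 and Mcl1 (r = 0.94 each) and Pdcd10 (r = 0.93). Btg2, Zfp36 and Mcl1 belong to the list of products of the primary response, and their differences in Group M vs Group C were 0.33, 0.28 and 0.22 without passing the test. In D12 the signals were 2.67 for Btg2, -1.60 for Zfp36 and 2.01 for Mcl1, against Group C means of 1.15 ± 0.13, -2.86 ± 0.19 and 1.12 ± 0.10 (SD, n = 4). Of all genes, 8.33% and 3.79% had an r of at least 0.8 in these comparisons. D12, far from the mean of Group D in Arc, is among the 12 rats, and no such list was made without it.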
